A study of Homo sapiens with 2 samples.

Results

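The genes described here are the enzymes that make serotonin and its cofactor tetrahydrobiopterin (BH4), together with the protein that regulates BH4 synthesis. They are TPH2, TPH1, DDC, GCH1, PTS, SPR, GCHFR, PCBD1 and QDPR, chosen by symbol, and all 9 were found among the 61487 features of both libraries. The cells were serotonin neurons differentiated for 42 days from the human embryonic stem cell line WA09 (H9), dissociated and sorted by FACS for EGFP. Both libraries carried a TPH2-EGFP knock-in, and 1 library of each genotype was made with the 10x Genomics 3′ kit (v3). The library labelled FKO also carried a FOXA2 knockout, described in the study's methods as 1 edited line with an indel in which the reporter was then built. Because cells were sorted on a reporter at TPH2, the level of TPH2 is tied to the gate, and no unsorted cells were measured. The libraries shared 21 cell barcodes. In a staining experiment on neurons of the same stage the study gave WT and FKO cells different doses of purmorphamine (PUR), an agonist of SHH signalling. The dose for these libraries is not given in the sources used here, and if it differed, dose and genotype cannot be told apart in any value of FKO over WT.

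FOXA2 mRNA was the lower in cells labelled WT. Labelled WT it stood at 4.35 CPM (334 UMIs) and labelled FKO at 21.8 CPM (1265 UMIs), so that FKO over WT was 2.33 (2.15 to 2.51) on the log2 scale. A 3′ count does not show an indel, so every direction given here rests on the labels. Of the 3 other floor plate genes listed, FOXA1 ran the same way (1.89), and SHH (-1.11) and CORIN (-2.08) the opposite way. Among cells with at most 5% mitochondrial UMIs (340 labelled WT, 2888 labelled FKO) the FOXA2 log2 ratio was 0.17. With 1 library per genotype no test between genotypes was made, cells do not stand in for replicates, and the 95% intervals given are exact and hold the error of counting alone.

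Serotonin is made from tryptophan in 2 steps, hydroxylation by tryptophan hydroxylase and decarboxylation by aromatic amino acid decarboxylase. The hydroxylase needs BH4, which is made from GTP and, after each use, dehydrated and reduced back to its active form. FEV is the transcription factor that marks the serotonergic lineage and is known to act on genes of serotonin synthesis.

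TPH2 encodes the neuronal tryptophan hydroxylase (chr12:71938845-72032440), and DDC the decarboxylase that also serves dopamine neurons (chr7:50458442-50565405). TPH2 stood at 198.5 CPM (195.3 to 201.6) in the library labelled WT and 161.2 CPM (157.9 to 164.5) in the library labelled FKO. DDC stood at 269 CPM (265.3 to 272.7) and 224.9 CPM (221 to 228.7). Both were thus lower per UMI in the pooled cells of the library labelled FKO, and DDC was above TPH2 in each. A UMI count is 1 per captured transcript and is not divided by length, and since capture differs by gene, such orders between genes are orders of captured molecules only.

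The bases before the starts of TPH2 and DDC are shown because these are the serotonin-making steps, and those of GCHFR and PTS because their ratios between cells with and without FEV differed, as described further on. The windows hold the 250 bases upstream of the RefSeq start on GRCh38.p14, 5′ to 3′ on the strand of the gene. They lie at chr12:71938595-71938844 (TPH2, plus strand), chr7:50565406-50565655 and chr7:50561072-50561321 (the 2 starts of DDC, minus strand), chr15:40763818-40764067 (GCHFR, plus strand) and chr11:112226178-112226427 (PTS, plus strand). Capitals mark matches to the searched motifs.
TPH2: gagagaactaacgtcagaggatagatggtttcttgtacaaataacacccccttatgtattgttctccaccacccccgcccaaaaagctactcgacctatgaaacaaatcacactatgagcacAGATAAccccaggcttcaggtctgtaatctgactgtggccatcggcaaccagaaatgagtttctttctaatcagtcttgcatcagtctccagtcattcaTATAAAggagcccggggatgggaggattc
DDC start 1: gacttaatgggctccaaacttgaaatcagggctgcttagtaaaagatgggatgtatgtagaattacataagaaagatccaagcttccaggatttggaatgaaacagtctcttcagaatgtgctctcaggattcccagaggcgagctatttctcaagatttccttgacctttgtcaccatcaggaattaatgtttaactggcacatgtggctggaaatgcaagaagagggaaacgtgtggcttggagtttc
DDC start 2: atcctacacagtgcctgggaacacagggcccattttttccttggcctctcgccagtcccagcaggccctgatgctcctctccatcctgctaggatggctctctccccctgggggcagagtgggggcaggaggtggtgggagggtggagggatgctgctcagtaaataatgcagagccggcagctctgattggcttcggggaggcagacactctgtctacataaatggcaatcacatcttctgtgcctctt
GCHFR: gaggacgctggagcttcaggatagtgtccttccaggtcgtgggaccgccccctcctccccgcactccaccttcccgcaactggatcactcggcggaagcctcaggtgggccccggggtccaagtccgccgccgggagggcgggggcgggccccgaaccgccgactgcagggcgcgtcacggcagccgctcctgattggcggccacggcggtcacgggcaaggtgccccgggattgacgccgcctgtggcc
PTS: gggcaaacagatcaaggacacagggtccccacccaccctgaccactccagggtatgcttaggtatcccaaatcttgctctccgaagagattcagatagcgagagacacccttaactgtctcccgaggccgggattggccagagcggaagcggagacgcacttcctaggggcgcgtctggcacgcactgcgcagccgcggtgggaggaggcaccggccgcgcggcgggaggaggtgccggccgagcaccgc
The motifs searched on both strands were TATAAA (held by 10.7% of all 35116 windows), CCGGAA (14.5%), AGATAA (9.17%) and TGACGTCA (1.65%), and the matches found did not overlap. TPH2 had TATAAA starting at position -29 and AGATAA at position -128, and none of the other member windows had a match. Such a match is a description of letters and not a binding site. In base content TPH2 and DDC stood apart from the cofactor genes. TPH2 had 46% GC and 5 CpG, and the DDC starts had 42.4% and 58% GC with 2 and 3 CpG, against medians of 58% and 11 CpG over all windows. GCHFR had 73.2% GC and 27 CpG, PTS 65.2% and 21, QDPR 79.6% and 36, PCBD1 69.6% and 23, and SPR 73.6% and 26. TPH1, the other hydroxylase, had 58.8% and 17. Of the 9 members 8 had a window, GCH1 being the other, and 3′ counts do not tell which DDC start was used.

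TPH1 encodes the hydroxylase of the gut and pineal gland (chr11:18017555-18046269). It was close to absent, with 62 UMIs (0.807 CPM) labelled WT and 125 UMIs (2.16 CPM) labelled FKO. The log2 ratio was 1.42 (0.97 to 1.88), the highest among the members, at a level under the 10 CPM used for counts of genes. Thinned to 5000 UMIs, TPH1 was seen in 0.557% (0.379 to 0.789) and 0.949% (0.712 to 1.24) of cells, intervals that overlap. In the library labelled FKO 124 of the TPH1 UMIs lay in cells with FEV and 1 in the 626 cells without. Those cells had median depths of 7007.5 and 5718.5 UMIs. Labelled WT, cells with 0 FEV UMIs after thinning held TPH1 at 2.75 CPM (0.568 to 8.04), from 3 UMIs. Thinned cells with a TPH1 UMI (31 and 53) held TPH2 in 48.4% (30.15 to 66.9) and 39.6% (26.45 to 54), against 49.98% and 43.65% of cells without TPH1. With so few cells these intervals allow more or less TPH2 beside TPH1.

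Among the BH4 synthesis genes, GCH1 encodes the enzyme of the rate-limiting step from GTP (chr14:54842017-54902826), PTS the synthase that follows it (chr11:112226428-112233973) and SPR the reductase that completes BH4 (chr2:72887408-72892158). GCH1 was nearly alike in the libraries, at 68.8 CPM (66.95 to 70.68) labelled WT and 64 CPM (61.95 to 66.09) labelled FKO. PTS differed more, at 151.4 CPM and 101.1 CPM. SPR was nearly missing, with 28 UMIs (0.365 CPM) and 34 UMIs (0.587 CPM) in 5749 and 6978 cells. SPR was seen in 0.179% of thinned cells labelled FKO, and in 0.571% (0.0693 to 2.05) of those without FEV. How much of SPR was free RNA was not tested. Whether SPR transcripts are missed by 3′ capture was not tested. Among enzymes of alternative reduction, AKR1B1 stood at 79.4 CPM and 68.1 CPM and CBR1 at 10.9 CPM and 10.4 CPM, with AKR1C3 at 0.482 CPM and 0.656 CPM.

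GCHFR encodes the protein that joins GTP cyclohydrolase and sets its feedback by BH4 and phenylalanine (chr15:40764068-40767708). It was the most abundant member in both libraries, at 464 CPM (459.2 to 468.8) labelled WT and 283.5 CPM (279.2 to 287.9) labelled FKO, ranks 306 and 507 among all genes by level. GCH1, which encodes the enzyme it regulates, was the least abundant member above 10 CPM, at ranks 2185 and 2984. There were 6.74 GCHFR UMIs for each GCH1 UMI (6.55 to 6.94) in the library labelled WT and 4.43 (4.28 to 4.59) in the library labelled FKO. Captured GCHFR transcripts thus outnumbered those of GCH1 in both, and by less in the library labelled FKO. Protein was not measured. The ratio was lower labelled FKO in 5 of 5 depth bands, for example 7.90 against 4.31 at 5000 to under 10000 UMIs and 6.22 against 5.06 at 20000 and over. At 2500 to under 5000 UMIs the intervals overlapped (3.79 to 9.12 labelled WT and 3.535 to 4.54 labelled FKO). At 1000 to under 2500 UMIs the ratio labelled WT (9.25, 3.32 to 35.7) rests on 4 GCH1 UMIs.

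PCBD1 encodes the dehydratase (chr10:70882280-70888565) and QDPR the reductase (chr4:17486395-17512090) that recycle BH4. PCBD1 stood at 108.4 CPM labelled WT and 77.17 CPM labelled FKO, and QDPR at 116.4 CPM and 72.1 CPM. The recycling genes were near each other in level and below PTS. From high to low the order labelled WT was GCHFR, DDC, TPH2, PTS, QDPR, PCBD1, GCH1, TPH1, SPR. Labelled FKO it was the same but for PCBD1, which was above QDPR with intervals that nearly touched (74.93 to 79.47 and 69.92 to 74.32).

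**Figure D1:**
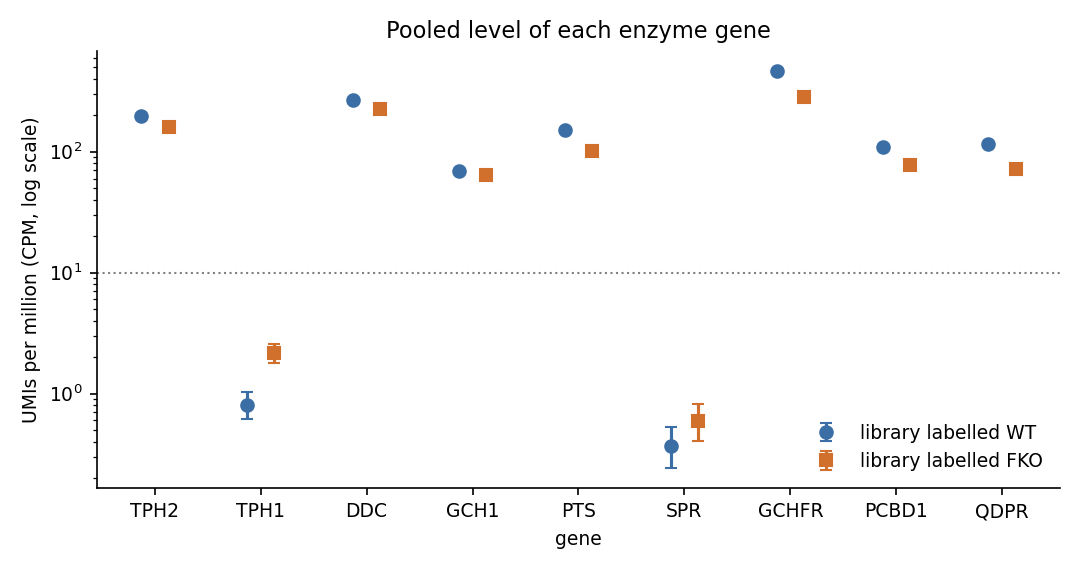
Pooled CPM (log scale) of the 9 genes in the libraries labelled WT (circles) and FKO (squares), with exact 95% counting intervals and a dotted line at 10 CPM. GCHFR is highest in both (464 and 283.5 CPM), and TPH1 and SPR lie under 3 CPM.

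Compared between genotypes, the 7 members with at least 10 CPM were all lower in the library labelled FKO, whereas most genes were higher. Taking FKO over WT for 9676 genes gave a median log2 ratio of 0.47, percentiles 5 and 95 of -0.73 and 1.53, and 72.5% of genes above 0. The members' median was -0.49, or -0.96 relative to the all-gene median, and 0 of 7 stood above that median. At least 1.5-fold below it were 6 of 7 members, against 23.4% of all genes, and 0 of 7 were at least 1.5-fold above it, against 17.9%. The shift of the whole was therefore in the opposite direction to that of the members, and relative values are the wider ones.

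Relative to the all-gene median, GCHFR, QDPR and PTS were lowest in the pooled counts and GCH1 nearest to it. GCHFR stood at -1.19 (-1.21 to -1.16), QDPR at -1.17, PTS at -1.06 and PCBD1 at -0.96. TPH2 stood at -0.77 (-0.81 to -0.74) and DDC at -0.73 (-0.77 to -0.70). The order of TPH2 and PCBD1 turned with depth bands weighted alike (-0.91 and -0.79). Just inside the threshold, GCH1 was not called, at -0.58 (-0.64 to -0.52). It was called with at most 20% mitochondrial UMIs (-0.61), over all deposited barcodes (-0.60), at 5% to 10% mitochondrial UMIs (-0.69) and against the median of all genes with a UMI in each library (-0.83). FEV itself was lower than any member, at -1.28, with 1583.9 CPM labelled WT and 908.4 CPM labelled FKO. In cells with at most 5% mitochondrial UMIs GCH1 stood at 0.01, TPH2 at -0.31 and DDC at -0.46, so that for TPH2 and DDC the call ended. Against a median over genes of at least 50 CPM, DDC stood at -0.57, which also ended its call.

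Of 24 other genes of the pathway, 13 had at least 10 CPM in either library, MAOA only labelled FKO and TH only labelled WT. At least 1.5-fold below the all-gene median were 5 of these, against 23.4% of all genes, and above it 2, against 17.9%, a share close to that background. Their median was -0.37. Lower were DNAJC12, a cochaperone of the hydroxylases (1048.5 and 693 CPM, relative log2 -1.07), TH, the hydroxylase of dopamine synthesis (16.8 and 7.53 CPM, -1.63), and MAOB, which breaks down monoamines (-0.79). AKR1B1 (-0.70) and SLC3A2, a subunit of amino acid transporters (-0.62), were the others. Higher were MAOA, which degrades serotonin (8.59 and 36.95 CPM, 1.63), and SLC18A2, which loads it into vesicles (19.2 and 50.6 CPM, 0.92), with SLC6A4, the serotonin transporter, just under the threshold (21.1 and 43.6 CPM, 0.57). PDXK, which supplies the cofactor of DDC, was near the median (-0.11).

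**Figure D2:**
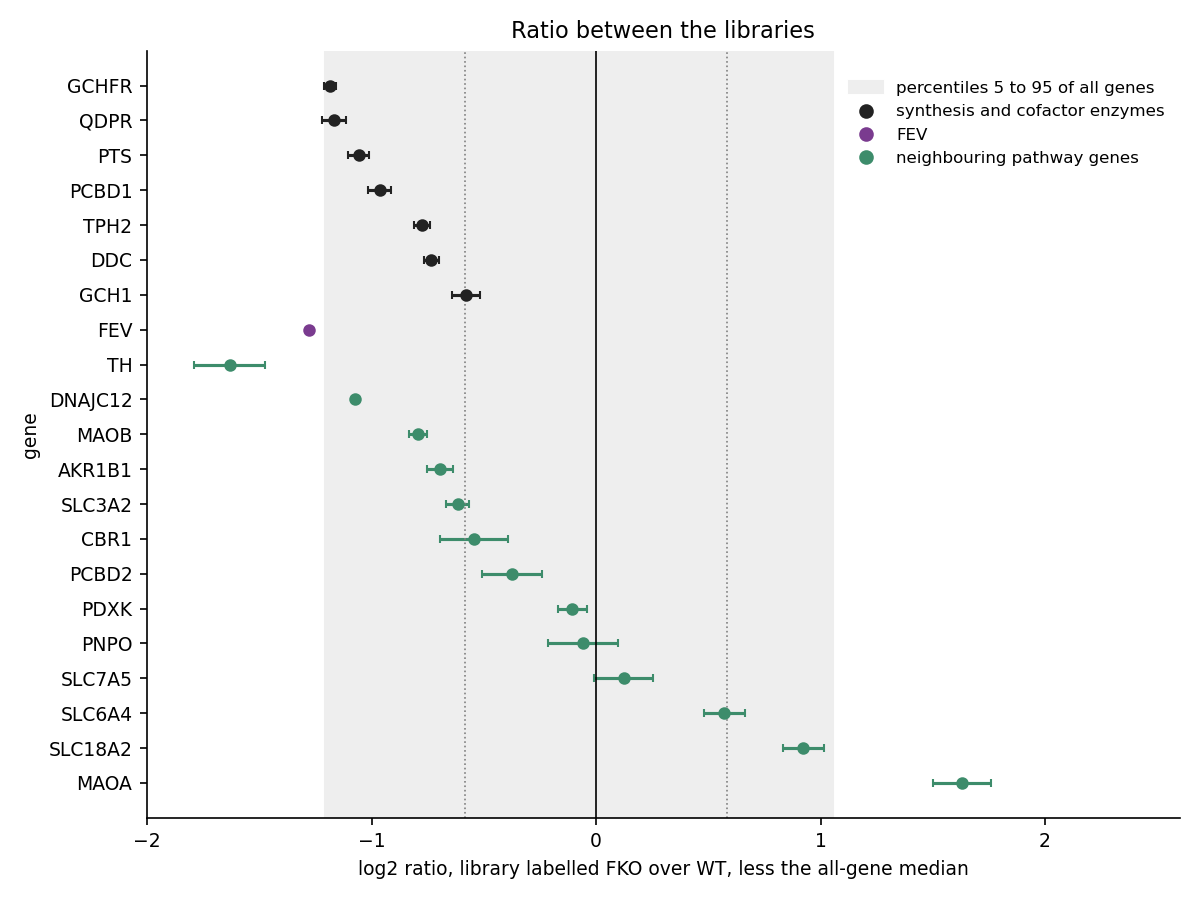
Log2 ratio of the library labelled FKO over WT less the all-gene median, for members with at least 10 CPM, FEV and 13 other pathway genes, with exact 95% counting intervals; dotted lines mark 1.5-fold and grey spans percentiles 5 to 95 of 9676 genes. All 7 members lie left of 0, from -1.19 (GCHFR) to -0.58 (GCH1).

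Lists of markers show what else the gates held. The 9 serotonergic genes summed to 2460.9 CPM labelled WT and 2082.1 CPM labelled FKO, led by FEV in both, and 5 of the 8 with a ratio were above the all-gene median. Mesenchymal genes (5) summed to 36.5 CPM, led by LUM, and 226.7 CPM, led by COL1A2, with 3 above the median. Cycling genes (4) summed to 35.0 and 57.3 CPM, led by CENPF, with 3 above the median. No gene of these lists was at 0. Floor plate genes (4) summed to 16.1 CPM, led by SHH, and 34.45 CPM, led by FOXA2, and its members ran opposite ways. FOXA2 and FOXA1 (2.45 and 9.07 CPM) were higher labelled FKO, while SHH (5.91 and 2.75 CPM) and CORIN (3.36 and 0.794 CPM) were lower. LIM-homeodomain and glutamatergic genes (4) summed to 7.2 CPM, led by ISL1, and 22.5 CPM, led by LHX1, with 2 above the median. GABA genes (3) summed to 2.24 and 4.39 CPM, led by GAD1, with 3 above it. The catecholamine list (5) summed to 17.5 and 7.77 CPM, nearly all from TH, and the noradrenaline transporter SLC6A2 (0 and 1 UMIs) and dopamine transporter SLC6A3 (1 and 0 UMIs) were all but absent beside the abundant DDC. The melatonin list (2) summed to 0.482 and 0.570 CPM, led by AANAT, and the enteroendocrine list (3), for the other serotonin-making cell, to 81.9 and 48.4 CPM, led by CHGA, though 2 of its 3 genes were above the median. The part of these markers in the members' ratios was not tested.

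Depth differed between the libraries, so members were also compared within bands of total UMIs. TPH2, DDC, GCHFR, PTS, QDPR and PCBD1 stood below the all-gene median in 5 of 5 bands, and GCH1 in 4 of 5. The share of all genes below it in as many bands is not given here. The bands are parts of the same libraries, so they do not repeat the comparison independently. The exception for GCH1 was the band of 1000 to under 2500 UMIs (0.58), which held 4 and 23 of its UMIs. TPH2 ranged from -1.09 to -0.71 over the bands and DDC from -0.88 to -0.06.

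Within each library, level also went with depth, and in opposite directions for different members. TPH2 was lower in deeper cells: labelled WT it went from 267.7 CPM (183.1 to 378) at 1000 to under 2500 UMIs over 227.9 CPM at 5000 to under 10000 to 160.3 CPM (153.9 to 166.9) at 20000 and over. Labelled FKO TPH2 was 161.4 CPM (122.5 to 208.6) at 1000 to under 2500 UMIs, 180.4 CPM (168.7 to 192.7) at 2500 to under 5000 and 136.2 CPM (127.6 to 145.2) at 20000 and over. PCBD1 was higher in deeper cells, from 63.7 CPM (42.01 to 92.7) at 2500 to under 5000 to 118.9 CPM at 20000 and over labelled WT, and from 49.4 to 97.45 CPM labelled FKO. GCH1 hardly went with depth above 2500 UMIs, at 61.2 to 71.4 CPM labelled WT and 60.04 to 67.1 CPM labelled FKO. From 2500 UMIs up, a deeper cell thus held a smaller fraction of TPH2 and a larger fraction of PCBD1 among its UMIs in both libraries.

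**Figure D3:**
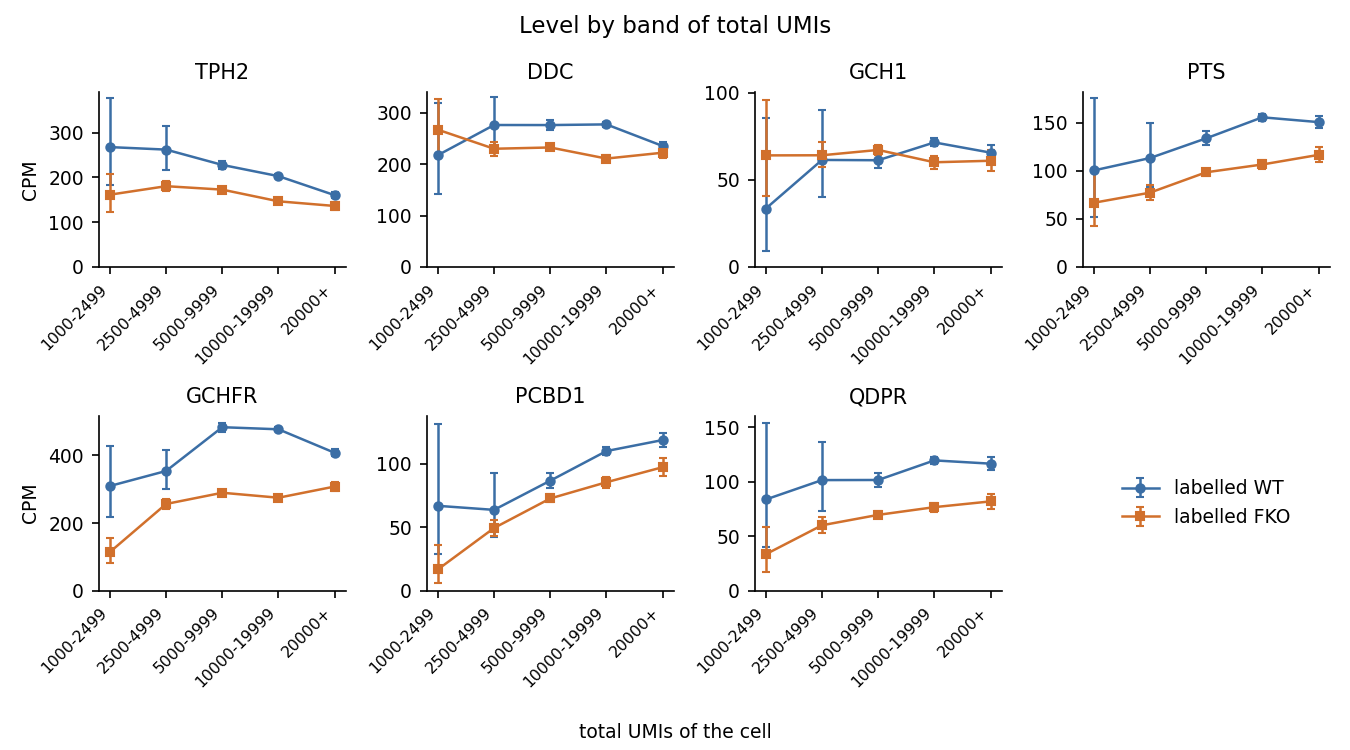
Pooled CPM of 7 members in 5 bands of the cell's total UMIs, for the libraries labelled WT (circles) and FKO (squares), with exact 95% counting intervals. TPH2 goes down with depth (227.9 CPM at 5000 to under 10000 and 160.3 CPM at 20000 and over, labelled WT) and PCBD1 goes up (86.8 and 118.9 CPM).

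By mitochondrial share, TPH2 ran in opposite order in the libraries. Labelled WT it was 158.7 CPM (146 to 172.2) at up to 5%, 175.9 CPM at 5% to 7.5% and 216.6 CPM (212.3 to 221) at 7.5% to 10%. Labelled FKO it was 177.6 CPM (172.5 to 182.8), 156.7 CPM and 107.6 CPM (99.3 to 116.4). GCH1 ran the same way, 50.6, 69.6 and 69.75 CPM against 70.5, 62.4 and 41.8 CPM. Of these shares, up to 5% was the only one at which TPH2 and GCH1 were higher labelled FKO, and DDC was nearly equal there (236.8 and 238.6 CPM). The median share was 7.82% labelled WT and 5.33% labelled FKO, and its part in the ratios was not tested.

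In cells thinned to equal depth, the 7 members with at least 10 CPM were seen in fewer cells of the library labelled FKO. After thinning to 5000 UMIs (5569 and 5586 cells), GCHFR was seen in 83.2% and 68.35%, DDC in 69.6% and 61.8%, and TPH2 in 49.97% and 43.6%. PTS was seen in 51.3% and 38.7%, QDPR in 43.1% and 29.2%, and PCBD1 in 37.9% and 29.4%. GCH1 was seen in 27.6% (26.4 to 28.8) and 26.4% (25.3 to 27.6), intervals that overlap. The share of all genes seen in fewer cells labelled FKO is not given here. A thinned cell held a mean of 3.63 members labelled WT and 2.99 labelled FKO, and none of them in 1.51% and 4.65% of cells. TPH2, DDC and GCH1 were seen together in 664 cells (11.9%, 11.1 to 12.8) labelled WT and 534 (9.56%, 8.80 to 10.4) labelled FKO. In cells with at most 5% mitochondrial UMIs this order turned, at 10.0% and 11.2%. Without thinning the trio was seen in 40.2% and 20.4% of cells, and by band of total UMIs its share was higher with depth in both libraries, so whether a cell showed the trio went with its depth. In the shallowest band the shares were 0% (0 to 5.21) and 1.03% (0.125 to 3.67), from 0 and 2 cells, too few to give an order. The order turned in the deepest band, at 62.1% (58.0 to 66.1) and 69.0% (62.8 to 74.8), intervals that overlap. In that deepest band TPH2, DDC and GCH1 were each seen in a larger share of cells labelled FKO. Median depth there was 23779 UMIs labelled WT and 25021 labelled FKO. Per UMI TPH2 was still lower labelled FKO in that band (160.3 and 136.2 CPM). DDC (235.4 and 222.3 CPM) and GCH1 (65.6 and 60.9 CPM) were also lower per UMI there, with intervals that overlap. Thinned to 2000 UMIs instead, 1.95% and 1.40% showed the trio, and thinned to 10000 UMIs 31.9% and 26.6%.

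TPH2 was spread over cells more unevenly than the other members. Its variance over mean in thinned cells was 2.35 labelled WT and 2.26 labelled FKO, against medians of 1.07 and 1.07 over 644 and 1060 genes within 1.5-fold of its mean. That put TPH2 at percentiles 98.8 and 98.7 of these genes. By variance over mean GCHFR followed at 1.7 and 1.47, and DDC was at 1.24 and 1.29, PTS at 1.07 and 1.05. Among genes within 1.5-fold of each member's own mean the order of these others differed. GCHFR was at percentiles 92.75 and 91.7, PCBD1 at 90.7 and 91.7, GCH1 at 82.6 and 92.5, and DDC at 86.3 and 88.7. PTS was at 63.1 and 56.5, and QDPR at 57.9 and 77.5. Without gated and FEV-zero cells the value of TPH2 was nearly the same, at 2.32 and 2.20. A single cell held up to 42 and 24 TPH2 UMIs before thinning.

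Cells with FEV UMIs held far more of the serotonin genes than cells without, whereas PTS, QDPR and PCBD1 differed less. Labelled WT 5629 cells had a FEV UMI and 120 had none (median depths 12530 and 7516.5 UMIs), and labelled FKO 6352 and 626. Called at least 1.5-fold higher with FEV were 5 of 7 members labelled WT, against 13.4% of genes, and 4 of 7 labelled FKO, against 10.1%. None was called lower, against 14.8% and 15.3%. The members' medians were 2.18 and 2.31 on the log2 scale, beside all-gene medians of 0.05 and 0.04. Over all deposited barcodes the members' medians were 0.82 and 1.66.

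TPH2 stood at 200.7 and 23.5 CPM with and without FEV labelled WT (log2 3.09, 2.51 to 3.75) and 170.4 and 33.45 CPM labelled FKO (2.35, 2.10 to 2.61). DDC had log2 ratios of 2.73 and 2.53, GCH1 of 3.09 and 2.59, and GCHFR of 2.18 and 2.31. PTS had 0.56 and 0.54, QDPR 0.67 and 0.58, on either side of the threshold, and PCBD1 -0.04 and 0.35. TPH2, DDC, GCH1 and GCHFR thus went with FEV most strongly. The order of the others varied with depth: labelled WT at 5000 to under 10000 UMIs PCBD1 had 0.75, QDPR 0.70 and PTS 0.08, from 14, 17 and 34 UMIs without FEV. In thinned cells without FEV, shares that free RNA could also give were 2.70% and 6.57% for TPH2, 13.5% and 7.71% for DDC, 5.41% and 4% for GCH1 and 33.8% and 26% for GCHFR. In the band of 1000 to under 2500 UMIs the ratio of TPH2 was 0.07 (-1.02 to 1.19) labelled WT and -0.33 (-1.14 to 0.46) labelled FKO, intervals that both hold 0.

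Among other pathway genes, DNAJC12 (2.83 and 2.63), SLC6A4 (4.39 and 3.19), SLC18A2 (2.66 and 3.02) and MAOB (2.81 and 2.42) were also higher with FEV. Labelled WT, SLC6A4 (1.91 to 9.69) and SLC18A2 (1.11 to 4.94) rest on 1 and 3 UMIs without FEV. Of 12 compared labelled WT 4 were higher, against 13.4% of all genes, and 2 lower, against 14.8%. Of 13 labelled FKO 5 were higher, against 10.1%, and 2 lower, against 15.3%, so the lower counts were near the background. The medians were 0.40 and 0.23.

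Graded by FEV, the same members were higher in cells with more FEV, with a different course in each library. Cells were thinned to 5000 UMIs and binned at 0, 1 to 2, 3 to 5, 6 to 10 and over 10 FEV UMIs. GCHFR labelled WT was 94.5, 203.2, 398, 495.5 and 612.7 CPM over these bins, and labelled FKO 83.2, 236.3, 302.1, 347.4 and 350.2 CPM. At like FEV, GCHFR was thus lower in the library labelled FKO from 3 FEV UMIs up. GCH1 was 10.1, 31.05, 62.0, 71.0 and 82.7 CPM labelled WT and 12.2, 59.0, 70.4, 76.2 and 90.4 CPM labelled FKO, as high or higher at like FEV. TPH2 labelled FKO was near its full level at 1 to 2 FEV UMIs (170.9 CPM, and 197.7 CPM at over 10), whereas labelled WT it was 103.7 CPM there and 241.2 CPM at over 10. DDC was 55.05, 128.9, 274.9, 306.3 and 292.9 CPM labelled WT and 42.2, 186.4, 244.2, 270.9 and 288.9 CPM labelled FKO. Labelled WT, DDC was thus no higher at over 10 than at 6 to 10 FEV UMIs. QDPR labelled WT was also higher with more FEV, at 64.2, 86.8, 106.6, 117.9 and 130.2 CPM, and PTS went from 110.1 to 165 CPM. Labelled FKO, PTS went from 75.7 to 106.5 CPM and QDPR from 56.4 to 62.8 CPM, with 78.3 CPM at 6 to 10. PCBD1 alone was nearly flat labelled WT, between 92.7 and 106.3 CPM over all bins.

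**Figure D4:**
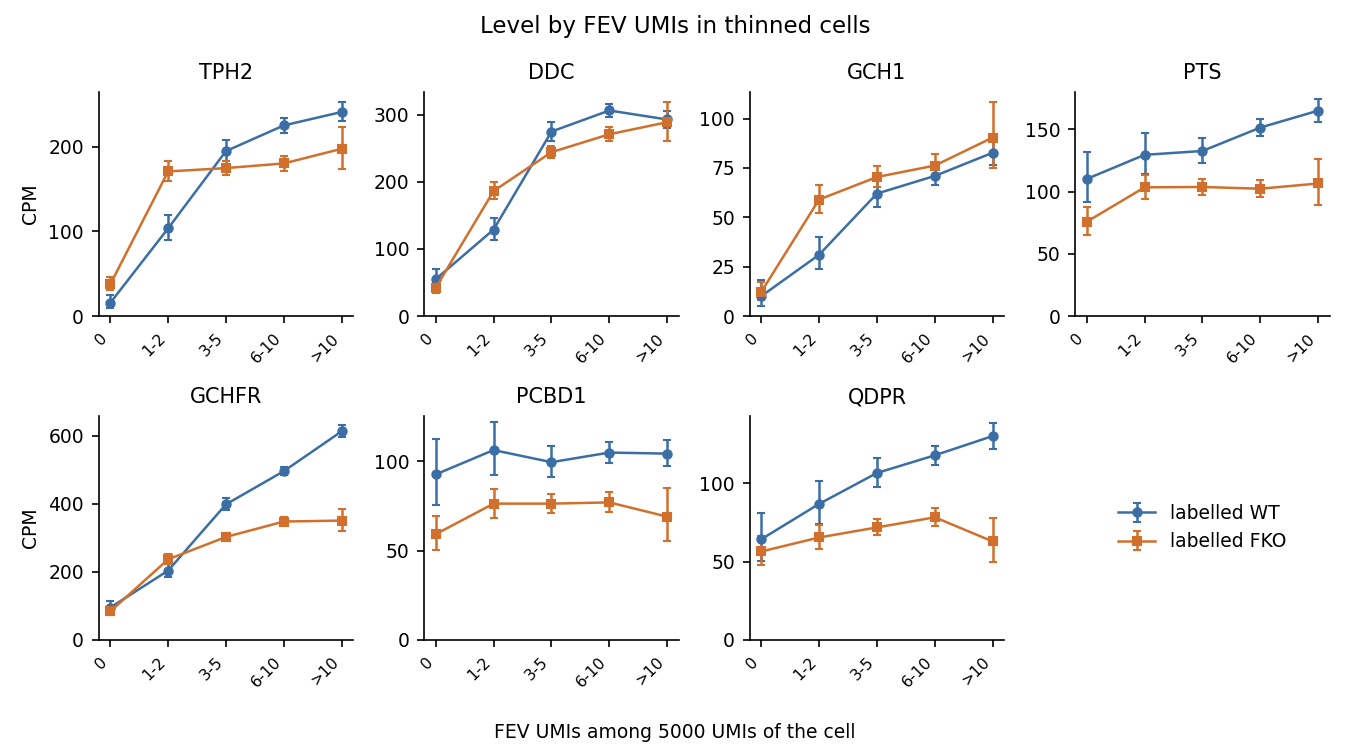
Pooled CPM of 7 members by the number of FEV UMIs in cells thinned to 5000 UMIs, for the libraries labelled WT (circles) and FKO (squares), with exact 95% counting intervals. GCHFR goes from 94.5 to 612.7 CPM labelled WT and levels off at 350.2 CPM labelled FKO, while PCBD1 labelled WT stays between 92.7 and 106.3 CPM.

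Cells gated on markers of other types held much less TPH2, while PCBD1 was near its level in serotonergic cells and PTS and QDPR lay between in most gates. Gates on MKI67 and TOP2A (42 and 84 cells), on collagens (20 and 115), on SHH and CORIN (93 and 44) and on SLC17A6 and LHX1 (33 and 134) held TPH2 at 18.6 to 31.2 CPM labelled WT and 31.2 to 84.1 CPM labelled FKO. Ungated cells with FEV held it at 207.3 and 176.5 CPM. PCBD1 in the same gates was 82.15 to 128 CPM labelled WT and 73.9 to 86.4 CPM labelled FKO, near its 108.4 and 78.1 CPM in ungated cells with FEV. QDPR was 61.4 to 86.4 CPM and 41.5 to 74.5 CPM in the gates, against 118.7 and 74.5 CPM, and PTS 64.5 to 165.2 CPM and 68.3 to 102.1 CPM, against 154.1 and 104.1 CPM. In 3 of 4 gates labelled WT, PTS was thus below its level in ungated cells with FEV. In thinned cells TPH2 was seen in 3.03% to 15% of gated cells labelled WT and 12.7% to 28.0% labelled FKO. The gates had median depths of 11507 to 26486 and 10009 to 13340 UMIs, against 12453 and 6919 for ungated cells with FEV. By gate, 81.7% to 100% of cells labelled WT and 51.3% to 65.9% labelled FKO held a FEV UMI before thinning. In the SHH and CORIN gate labelled FKO, 22 of 44 cells lay exactly at the cut. How much of the TPH2 in gated cells was free RNA was not tested.

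From cell to cell, TPH2, DDC, GCH1 and GCHFR were seen together more often than their shares alone would give, and the other members less so, with QDPR and PCBD1 labelled WT as an exception. In thinned cells with and without a TPH2 UMI, GCHFR was seen in 88.5% and 77.9% labelled WT and 75.8% and 62.6% labelled FKO. GCH1 was seen in 31.3% and 23.9% labelled WT and 30.75% and 23.1% labelled FKO, while PCBD1 was seen in 37.9% and 38.0%, and 29.9% and 29.1%. Over the 6 pairs within this group the median log2 odds ratio was 0.63 (0.49 to 1.25) labelled WT and 0.78 (0.56 to 1.16) labelled FKO, the highest being DDC with GCHFR in both. Over the 12 pairs of 1 of these genes with PTS, QDPR or PCBD1 the medians were 0.17 and 0.18. Over the 3 pairs within PTS, QDPR and PCBD1 they were 0.18 (0.14 to 0.49) and 0.16 (0.16 to 0.20), and QDPR with PCBD1 labelled WT was as high as TPH2 with DDC (0.49 each). Among cells with 3 to 5 FEV UMIs only (1009 and 2053), the 6 pairs had medians of 0.71 (0.22 to 0.74) and 0.35 (0.04 to 0.54), the latter less than in all cells. The 12 pairs had 0.16 (-0.14 to 0.49) and 0.15 (-0.10 to 0.55) in those cells, so the ranges overlapped there. Labelled WT, single pairs went both ways from all cells to these cells. TPH2 with DDC went from 0.49 to 0.22, with GCH1 from 0.54 to 0.25 and with GCHFR from 1.12 to 0.74. DDC with GCHFR went from 1.25 to 0.74, DDC with GCH1 from 0.64 to 0.74 and GCH1 with GCHFR from 0.63 to 0.69. Labelled FKO, TPH2 with DDC, GCH1 and GCHFR was also lower in these cells. Cells of 1 library share their source, and these are descriptions of 1 library each.

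**Figure D5:**
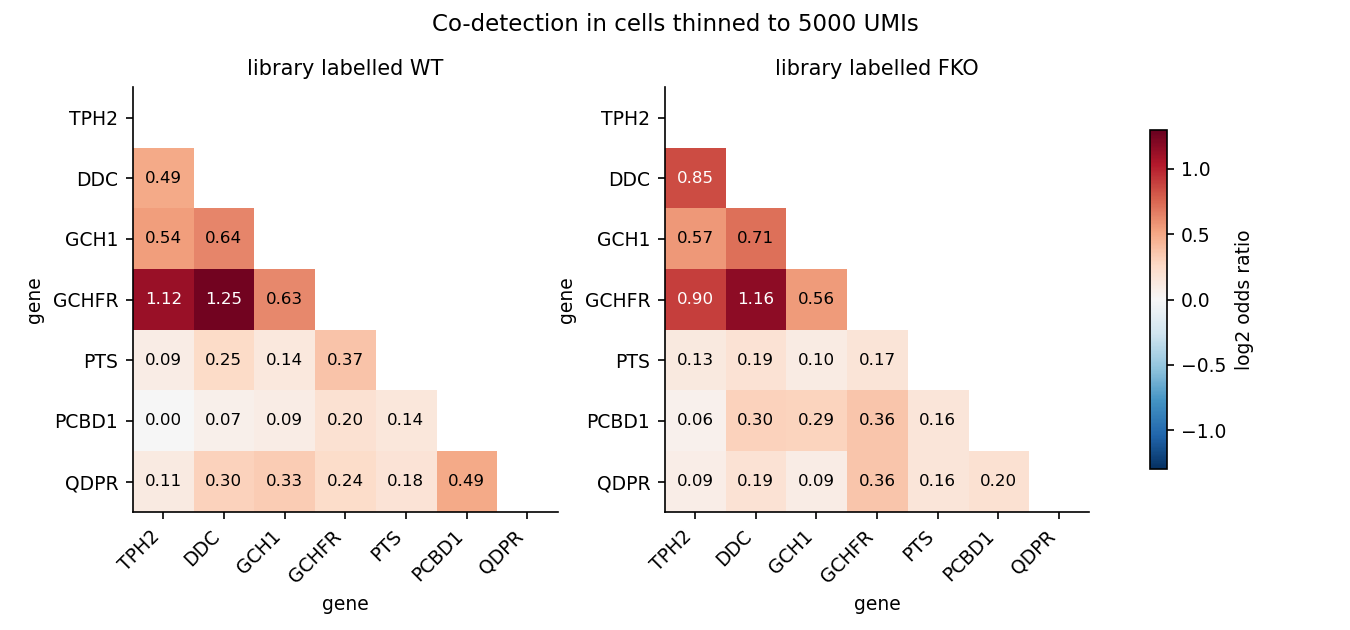
Log2 odds ratio of seeing each pair of 7 members in the same cell, in 5569 and 5586 cells thinned to 5000 UMIs, with colour and number giving the value. Pairs among TPH2, DDC, GCH1 and GCHFR reach 1.25 labelled WT and 1.16 labelled FKO (DDC with GCHFR), and TPH2 with PTS, PCBD1 and QDPR stays at or under 0.13.

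Genes most like the members over thinned cells were named by the lower of their Pearson correlations in the 2 libraries, among 5557 genes. For TPH2 they were SYT1, a calcium sensor of synaptic vesicles (0.29 and 0.30), DNAJC12 (0.21 and 0.21), GATA3 (0.20 and 0.22), CHGB (0.20 and 0.22) and MAOB (0.18 and 0.18). For DDC they were CHGB, a granin of secretory granules (0.25 and 0.32), DNAJC12 (0.25 and 0.24) and FEV (0.24 and 0.30), and for GCH1 CHGB (0.16 and 0.21), SYT1 (0.15 and 0.19) and FEV (0.14 and 0.15). GCHFR was most like FEV (0.38 and 0.29). Such correlations in sparse counts are weak, and the cells share library and chemistry.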

How the data were processed

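Single-cell RNA of EGFP-sorted cells was measured in 1 library labelled WT and 1 labelled FKO. The deposited values are raw UMI counts per gene and barcode, made by the authors with Cell Ranger (7.1.0 per the file headers, 7.0 per the labels) on GRCh38; the gene annotation and whether introns were counted are not given in the sources used here. The libraries held 11052 and 8806 barcodes with 123064653 and 70588747 UMIs. Barcodes under 1000 UMIs, under 500 genes or over 10% mitochondrial UMIs were left out. Doublets were scored with Scrublet (scanpy 1.11.5), whose own threshold marked 0 barcodes in each library, so the highest scores were marked at 0.8% per 1000 deposited barcodes (977 and 620). This left 5749 cells (52.0%, 51.1 to 53.0) with a median of 12460 UMIs labelled WT and 6978 (79.2%, 78.4 to 80.1) with 6927 labelled FKO.

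Pooled CPM are a gene's UMIs over all UMIs of the kept cells (76805355 and 57909575), and log2 ratios had no pseudocount. Genes with 3 UMIs or fewer in each library, or with 0 in either, were given no ratio. Relative values subtract the median over genes with at least 10 CPM in either library, and called means at least 1.5-fold. Intervals were exact at 95%: Clopper-Pearson for shares, Poisson for pooled counts, and for ratios the binomial given the sum of both counts. Thinning drew 5000 UMIs from each cell without replacement, which left out 180 and 1392 kept cells. Odds ratios had 0.5 added to each count. Gates were at least 3 UMIs of MKI67 and TOP2A, 10 of COL1A1, COL1A2 and COL3A1, 2 of SHH and CORIN, or 3 of SLC17A6 and LHX1, summed. Lists covered the pathway and markers for serotonergic, cycling, floor plate, mesenchymal, LIM-homeodomain glutamatergic, GABA, catecholamine, melatonin and enteroendocrine identity. Genes named beyond members and lists were those with the highest lower correlation of the 2 libraries among genes with a mean of at least 0.1 UMIs in thinned cells, 5 for TPH2 and 3 each for DDC and GCH1. Members and lists were chosen with earlier results of these data known. Upstream windows came from RefSeq (GRCh38.p14). Python 3.11.15, numpy 2.4.6, scipy 1.17.1, pandas 2.3.3 and matplotlib 3.10.9 were used, and the procedures were tested on simulated data. Alternatives changed the mitochondrial limit, filters, doublets, depth, weighting, FEV limit, genes behind the median and thinning, and those on gated cells and on 5% to 10% mitochondrial UMIs were added after seeing the data. Clusters were not used, and no test was made with 1 library per genotype.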

Additional observations from a re-analysis of the deposited data

How the results depend on the processing

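Every member with at least 10 CPM but GCH1 kept its direction relative to the all-gene median in 12 of 12 alternatives, and GCH1 in 11 of 12 (-0.83 to 0.01). TPH2 ranged from -1.03 to -0.31, DDC from -0.99 to -0.46, GCHFR from -1.44 to -1.02, PTS from -1.31 to -0.90, QDPR from -1.42 to -1.01 and PCBD1 from -1.22 to -0.79. With at most 5% mitochondrial UMIs 1 member (GCH1) stood above the median, the trio was seen in 10.0% (WT) and 11.2% (FKO) of cells, the opposite order, and the FEV medians were 1.79 and 1.69; the cause was not tested. The members' median was -0.91 with at least 5000 UMIs, -1.05 with cells weighted equally, -0.91 with depth bands weighted alike, -0.80 against genes of at least 50 CPM and -1.22 against all genes with a UMI in each library; the cause was not tested. Thinned to 2000 UMIs the trio was seen in 1.95% and 1.40%, and to 10000 UMIs in 31.9% and 26.6%, as depth sets detection; among cells with 5% to 10% mitochondrial UMIs it was 8.39% in FKO, and the cause was not tested. The FEV median was 1.83 in FKO with at most 20% mitochondrial UMIs, 0.82 and 1.66 over all deposited barcodes, 1.79 and 1.98 as a mean over depth bands, and 2.02 in FKO against FEV-zero cells in no gate; the cause was not tested. No paired analysis was possible because each genotype has 1 library. Few cells lacked FEV in the library labelled WT. GCH1 was seen in a minority of cells thinned to 5000 UMIs, and without thinning in 52.6% labelled WT and 36.1% labelled FKO.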
